A study of Homo sapiens with 9 samples.

Results

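Aldo-keto reductases and carbonyl reductases use NADPH to turn reactive aldehydes and ketones into alcohols. When membrane lipids are peroxidised, as in ferroptosis, the peroxides break down to carbonyls such as hydroxynonenal, which these enzymes can clear, and several of their genes are known targets of the transcription factor NRF2. The 9 genes described here are AKR1A1, AKR1B1, AKR1B10, AKR1C1, AKR1C2, AKR1C3, CBR1, CBR3 and PTGR1, taken by their gene names from the 58735 genes of each library. They were measured in MDA-MB-231 cells, an established mesenchymal line of triple-negative breast cancer. Of the 9 libraries, 3 came from cells given vehicle (DMSO), 3 from cells that survived rising concentrations of erastin (erastin-R) and 3 from cells that survived rising concentrations of RSL3 (RSL3-R). Erastin blocks the cystine importer system xc-, RSL3 inhibits the lipid peroxidase GPX4, and both induce ferroptosis. The treated groups are therefore selected survivors and not cells after a first exposure, and the labels give neither doses nor separate cultures, so p-values measure the spread between these libraries, which may be technical.

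Total counts ranged from 15405102 to 17273464 per library. Levels within a gene are given as CPM, the count scaled to library size with TMM factors, and levels between genes as the deposited FPKM, which also divides by gene length. Tests are edgeR's quasi-likelihood test with Benjamini-Hochberg adjusted p-values over the 16188 genes that passed its filter on low counts. A gene is said to have risen or fallen at an adjusted p under 0.05, and the stricter rule also asks for a log2 fold change of 1 or more in size. Both treated groups were compared with the same 3 vehicle libraries, so these comparisons are not independent. VIM, at 245.0 to 301.0 FPKM, and CD44, at 22.8 to 31.8 FPKM, were expressed in every library, while ESR1 and PGR stayed at 12 counts or fewer, as is known for this line. ERBB2, also listed beforehand as low, was expressed in every library, at 5.74 to 9.28 FPKM (927 to 1598 counts). It fell in erastin-R and RSL3-R (log2 fold changes -0.19 and -0.59, edgeR adjusted p = 0.0352 and 1.21e-05). EPCAM had 15 to 48 counts and passed in neither (edgeR adjusted p = 0.0648 and 0.314). Of the epithelial genes, KRT18 was at 51.0 to 53.1 FPKM in vehicle, 21.3 to 26.8 FPKM in erastin-R, where it fell (log2 fold change -1.12, edgeR adjusted p = 9.48e-08), and 48.8 to 56.1 FPKM in RSL3-R, and CDH1 had 14 to 27, 6 to 20 and 53 to 59 counts and rose in RSL3-R (1.58, edgeR adjusted p = 0.0013). Markers of other cell types were low but moved with the groups. The endothelial gene PECAM1 had 154 to 177 counts in vehicle, 20 to 36 in erastin-R and 199 to 222 in RSL3-R (log2 fold changes -2.47 and 0.36, edgeR adjusted p = 8.28e-08 and 0.0469), and the leukocyte gene PTPRC had 4 to 11, 3 to 11 and 19 to 24 counts and rose in RSL3-R (1.67, edgeR adjusted p = 0.00818). The T cell marker CD3E had at most 4 counts in any library. The fibroblast genes COL1A1 (111 to 205 counts) and PDGFRB (96 to 191 counts) rose in RSL3-R by 0.39 and 0.69 (edgeR adjusted p = 0.0469 and 0.00039). Their part in the results below was not tested. Replicate 1 of erastin-R stood apart from the other libraries, at -35.7 on the third principal component against -6.34 to 14.4 for the other 8, and the values without it are given for AKR1A1, AKR1B1, PTGR1, NFE2L2, KEAP1 and SRXN1. In bulk RNA a higher level per cell and a larger share of expressing cells cannot be told apart.

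The AKR1C genes lie side by side on chromosome 10 and are close copies of each other, which bears on every value given for them because only uniquely mapped reads were counted. In GRCh38, AKR1C1 spans chr10:4963253-4983283 on the plus strand, AKR1C2 chr10:4987400-5018031 on the minus strand and AKR1C3 chr10:5035354-5107686 on the plus strand. Their coding sequences are all 972 bases long. AKR1C1 and AKR1C2 differ at 19 of these bases (98.0% identity), and their last 189 coding bases are equal. AKR1C3 is 91.5% identical to AKR1C1 and 91.0% to AKR1C2. The stretch below, coding bases 73 to 162, crosses from exon 1 to exon 2 and is shown because it holds many of the bases that tell AKR1C1 and AKR1C2 apart. The capitals mark the 19 positions that are not equal in all 3 genes, read from the GENCODE 29 transcripts.
AKR1C1: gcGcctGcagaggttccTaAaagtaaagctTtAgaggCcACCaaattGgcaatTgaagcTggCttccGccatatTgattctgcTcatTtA
AKR1C2: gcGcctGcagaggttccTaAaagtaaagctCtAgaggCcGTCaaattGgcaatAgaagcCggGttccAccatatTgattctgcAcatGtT
AKR1C3: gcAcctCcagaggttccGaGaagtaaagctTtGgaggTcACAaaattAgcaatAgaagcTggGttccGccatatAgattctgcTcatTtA
The exon 2 part lies at chr10:4965914-4965991 in AKR1C1, chr10:5001604-5001681 in AKR1C2 and chr10:5096410-5096487 in AKR1C3. Within the stretch AKR1C2 differs from AKR1C1 at 10 bases and AKR1C3 at 11. Over whole annotated transcripts, 28.3% of the 50-base words of AKR1C1 were also found in AKR1C2, and 38.1% of those of AKR1C2 in AKR1C1. For AKR1C3 all shared words came to 4.5%. A read that lies within shared sequence has no unique place, so the counts of AKR1C1 and AKR1C2 can leave out part of their reads, and AKR1C3 shares the smallest part of the 3.

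AKR1B1 was the most abundant of the 9 genes in every group. It encodes aldose reductase, which makes sorbitol from glucose in the polyol pathway and also reduces lipid aldehydes, and lies at chr7:134442350-134459284 on the minus strand of GRCh38. Per length its level was 42.7 ± 0.703 FPKM (SD, n = 3) in vehicle, 85.9 ± 14.9 FPKM in erastin-R and 51.1 ± 1.08 FPKM in RSL3-R. That was 47.9%, 57.0% and 51.3% of the summed FPKM of the 9 genes. In vehicle the order below it was AKR1A1 (13.1 FPKM), PTGR1 (12.2), CBR1 (9.75), CBR3 (5.70), AKR1C3 (4.79), AKR1C1 (0.646), AKR1B10 (0.256) and AKR1C2 (0.156 FPKM). This order depends on the length used, that of all annotated exons. It was 8765 bases for AKR1C1, 6461 for AKR1C2, 4532 for AKR1C3 and 1169 for CBR3. By counts AKR1C1 (72 to 120 in vehicle) overlapped CBR3 (107 to 114). The vehicle ranges of AKR1A1 and PTGR1 overlapped, as did those of AKR1B10 and AKR1C2, and the other neighbours were apart. In erastin-R, PTGR1 at 24.1 FPKM lay above AKR1A1 at 17.8 FPKM, and AKR1C3 at 9.27 FPKM had moved above CBR3 at 2.86 FPKM and level with CBR1 at 8.06 FPKM, whose range it overlapped. RSL3-R had the same order down to AKR1C1, with 16.8 FPKM for PTGR1, 7.79 FPKM for AKR1C3 and 1.84 FPKM for CBR3. The sum over the 9 genes was 89.2 ± 1.21 FPKM in vehicle, 149.9 ± 15.8 FPKM in erastin-R and 99.7 ± 1.52 FPKM in RSL3-R.

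**Figure D1:**
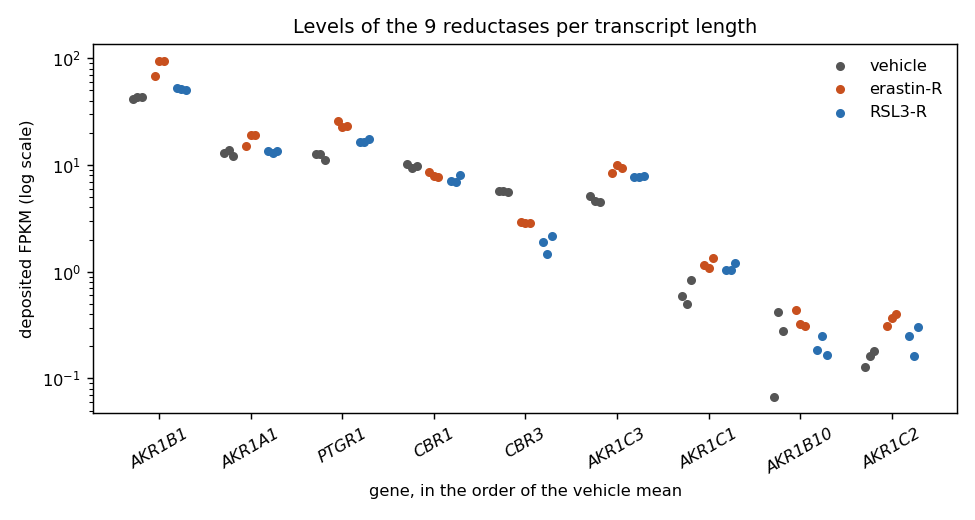
Deposited FPKM (log axis) of the 9 reductase genes in each of the 9 libraries, 3 points per group, ordered by the vehicle mean. AKR1B1 is highest in every group, and AKR1C1, AKR1B10 and AKR1C2 lie lowest.

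In erastin-R cells 6 of the 8 reductases that passed the filter rose and 2 fell; of all 16188 genes 27.1% rose and 26.8% fell. The 6 were AKR1A1, AKR1B1, the 3 AKR1C genes and PTGR1, and the 2 were CBR1 and CBR3. By the stricter rule 2 were called, AKR1B1 and AKR1C2, both higher, beside 6.70% of all genes higher and 6.66% lower. Without replicate 1 of erastin-R it called 4, adding AKR1C3 (log2 fold change 1.02) and CBR3 (-1.0), and without replicate 3 of vehicle also 4, adding AKR1C1 (1.12) and CBR3 (-1.01). Without replicate 2 or replicate 3 of erastin-R the count stayed at 2, but AKR1B1 (0.94 in both fits) dropped out and PTGR1 (1.03 and 1.02) came in. The median log2 fold change was 0.92 over the 8 genes, and over all genes tested it was within 0.02 of 0 in each comparison. In RSL3-R cells 4 of the 8 rose (AKR1B1, AKR1C1, AKR1C3 and PTGR1) and 2 fell (CBR1 and CBR3), beside 23.8% and 24.9% of all genes. CBR3 alone met the stricter rule, lower, as 4.08% of all genes did, while 6.02% met it higher. For all genes this is 975 higher and 660 lower, and quantile normalization gave 730 and 717. The median over the 8 was 0.36. Compared directly, 5 of the 8 were lower in RSL3-R than in erastin-R and none was higher, beside 26.9% and 22.3% of all genes, with a median of -0.48. The stricter rule held for 0 of the 8 in this comparison, also with an unadjusted p under 0.05, with DESeq2 and with limma, while 10.3% of all genes met it (10.9% with the unadjusted p).

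**Figure D2:**
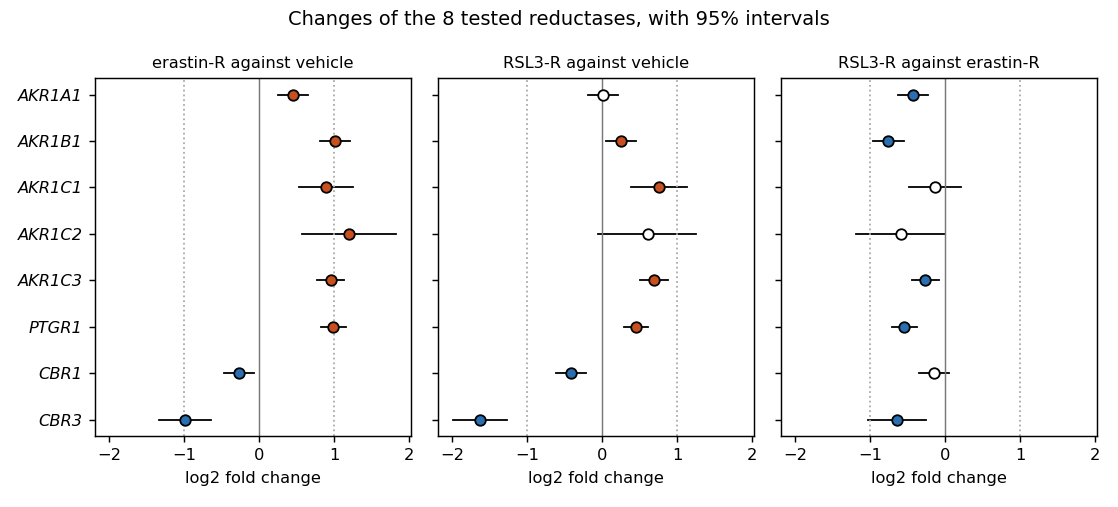
Log2 fold change (x axis) of the 8 tested reductases in each comparison, with 95% intervals as lines. Filled points have an adjusted p under 0.05 in edgeR's quasi-likelihood test (orange higher, blue lower), open points do not, and dotted lines mark a log2 fold change of -1 and 1; CBR1 and CBR3 lie left of 0 in every panel.

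Among the aldose and aldehyde reductases, AKR1B1 gave 155, 159 and 159 CPM in vehicle, 256.5, 349.5 and 351 CPM in erastin-R and 193, 189 and 184 CPM in RSL3-R. All 6 treated libraries lay above all vehicle libraries, and erastin-R above RSL3-R, with replicate 1 of erastin-R well below the other 2. CPM ranges lay apart and higher than vehicle for 28.7% of all genes in erastin-R and 30.4% in RSL3-R. AKR1B1 rose 2.02-fold in erastin-R (log2 fold change 1.01, SE 0.10, edgeR adjusted p = 1.05e-06), and the value was 1.15 without replicate 1 of erastin-R and 0.94 without replicate 2 or 3. Its 1.19-fold rise in RSL3-R (0.26, SE 0.10, edgeR adjusted p = 0.0392) missed the threshold without any 1 of the vehicle libraries and without replicate 1 or 2 of RSL3-R (edgeR adjusted p 0.0695 to 0.110). In the direct comparison RSL3-R was lower than erastin-R (-0.76, SE 0.10, edgeR adjusted p = 2.18e-05; -0.89 without replicate 1 of erastin-R), and CPM ranges lay apart and lower in RSL3-R for 29.5% of all genes.

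AKR1A1, the general aldehyde reductase, lies at chr1:45550543-45570049 on the plus strand. It measured 41.4, 43.6 and 38.6 CPM in vehicle, 47.8, 60.9 and 60.1 CPM in erastin-R and 42.2, 40.6 and 42.7 CPM in RSL3-R. The erastin-R libraries lay above the other 6, again with replicate 1 the lowest of its group, and the RSL3-R values fell within the vehicle range. Of all genes, 28.7% lay apart and above vehicle in erastin-R, and 29.5% apart and lower in RSL3-R than in erastin-R. AKR1A1 rose in erastin-R (log2 fold change 0.45, SE 0.09, edgeR adjusted p = 0.000928; 0.55 without replicate 1 of erastin-R). For RSL3-R against vehicle the value was 0.02 (95% interval -0.18 to 0.22, edgeR adjusted p = 0.864), and for RSL3-R against erastin-R it was -0.43 (SE 0.09, edgeR adjusted p = 0.00159; -0.53 without replicate 1 of erastin-R).

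AKR1B10, a retinal and lipid aldehyde reductase, was near the limit of detection. It lies at chr7:134527592-134541408 on the plus strand, 75.8% identical in coding sequence to AKR1B1, and 14.8% of its 50-base words occurred in other genes, mainly AKR1B15. Its counts were 2, 12 and 8 in vehicle, 13, 9 and 9 in erastin-R and 5, 7 and 5 in RSL3-R, and it did not pass the filter. The vehicle libraries spanned nearly the whole range of the 9. Fitted without the filter, its difference on the log2 scale was 0.48 in erastin-R (edgeR adjusted p = 0.580), -0.37 in RSL3-R (edgeR adjusted p = 0.747) and -0.84 between them (edgeR adjusted p = 0.354). The RSL3-R libraries lay below the erastin-R ones, as CPM ranges did for 29.5% of all genes tested. No change of AKR1B10 was detected at this depth.

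**Figure D3:**
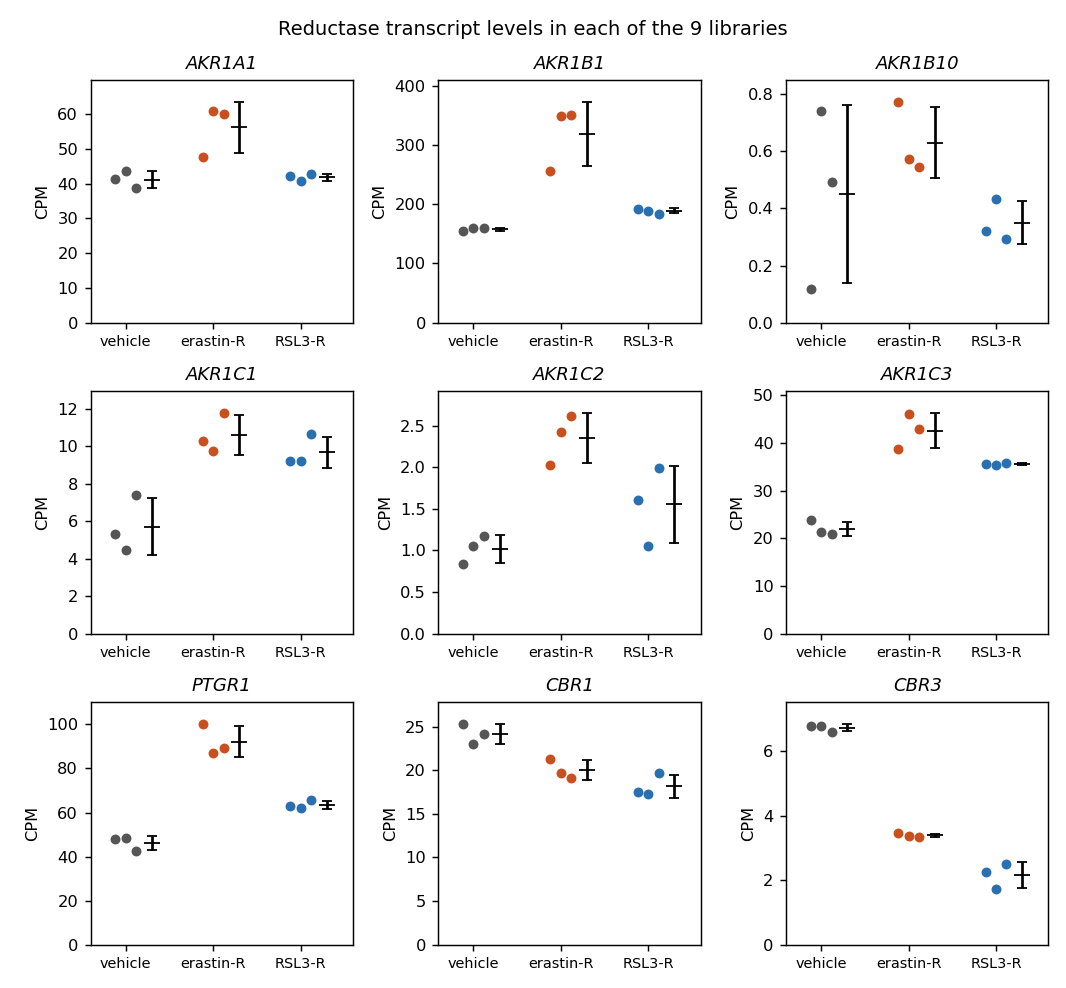
CPM (y axis, from 0, a separate scale per gene) of the 9 reductases in each library, points in the order of replicates 1 to 3, with the group mean and SD (n = 3) to the right. AKR1B1, AKR1C3 and PTGR1 are lowest in vehicle and highest in erastin-R, while CBR1 and CBR3 are highest in vehicle.

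The AKR1C enzymes reduce ketosteroids and prostaglandins as well as lipid aldehydes: AKR1C1 is known for inactivating progesterone, AKR1C2 for reducing dihydrotestosterone and AKR1C3 for making testosterone and prostaglandin F. AKR1C3 was by far the most abundant of the 3. Its CPM were 23.7, 21.3 and 20.8 in vehicle, 38.7, 46.1 and 43.0 in erastin-R and 35.5, 35.4 and 35.8 in RSL3-R. The 3 groups did not overlap, and vehicle was lowest and erastin-R highest; CPM ranges lay apart and higher than vehicle for 28.7% of all genes in erastin-R and 30.4% in RSL3-R. AKR1C3 rose 1.94-fold in erastin-R (log2 fold change 0.96, SE 0.09, edgeR adjusted p = 6.82e-07) and 1.62-fold in RSL3-R (0.70, SE 0.09, edgeR adjusted p = 1.63e-05). It was lower in RSL3-R than in erastin-R (-0.26, SE 0.08, edgeR adjusted p = 0.0193), a difference that missed the threshold in 6 of 17 alternatives (edgeR or limma adjusted p 0.0559 to 0.138), namely without replicate 2 of erastin-R, without each RSL3-R replicate in turn, in a model of the 2 groups alone and with quantile normalization. Of the 17 alternatives 1 was the sum of the AKR1C genes given below.

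AKR1C1 gave 5.31, 4.45 and 7.4 CPM in vehicle, 10.3, 9.73 and 11.8 CPM in erastin-R and 9.22, 9.20 and 10.6 CPM in RSL3-R. Every treated library was above every vehicle library, and the treated groups overlapped. AKR1C1 rose in erastin-R (log2 fold change 0.89, SE 0.17, edgeR adjusted p = 0.00053) and in RSL3-R (0.76, SE 0.17, edgeR adjusted p = 0.00216), and the value between them was -0.13 (95% interval -0.48 to 0.22, edgeR adjusted p = 0.525). AKR1C2 was the scarcest, with 14, 17 and 19 counts in vehicle, 34, 38 and 43 in erastin-R and 25, 17 and 34 in RSL3-R. Its erastin-R libraries lay above all vehicle libraries, whereas replicate 2 of RSL3-R was level with vehicle. AKR1C2 rose 2.30-fold in erastin-R (log2 fold change 1.2, SE 0.29, edgeR adjusted p = 0.00315). In RSL3-R its log2 fold change was 0.61 (95% interval -0.05 to 1.26, edgeR adjusted p = 0.115). That value ranged from 0.32 with quantile normalization (limma adjusted p = 0.325) to 0.82 without replicate 2 of RSL3-R (edgeR adjusted p = 0.0437), and was 0.42 without replicate 3 (edgeR adjusted p = 0.342). Between the treatments it was -0.59 (SE 0.27, edgeR adjusted p = 0.0893), from -0.38 without replicate 2 of RSL3-R to -0.78 without replicate 3, neither past the threshold, and -0.77 with quantile normalization (limma adjusted p = 0.0234).

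The count of AKR1C1 was 5.64 ± 1.21 times that of AKR1C2 in vehicle (SD, n = 3), 4.54 ± 0.532 times in erastin-R and 6.59 ± 1.84 times in RSL3-R, with overlapping ranges. Summing AKR1C1 to AKR1C4 into 1 feature, which keeps reads that move between the copies together, gave 0.94 on the log2 scale in erastin-R (edgeR adjusted p = 2.76e-07), 0.73 in RSL3-R (edgeR adjusted p = 3.62e-06) and -0.21 between them (edgeR adjusted p = 0.0321). Reads with several places in the genome were not counted, so the sum does not bring them back. AKR1C3 supplied most of the sum, with a mean of 360 counts in vehicle against 93.7 for AKR1C1 and 16.7 for AKR1C2. The values of the sum therefore largely repeat those of AKR1C3, and AKR1C1 and AKR1C2 were not summed by themselves.

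PTGR1 reduces the double bond of unsaturated carbonyls, among them hydroxynonenal and the keto forms of prostaglandins, and inactivates leukotriene B4. It lies at chr9:111549722-111599893 on the minus strand, and 3.1% of its 50-base words occurred elsewhere. It gave 48.0, 48.2 and 42.4 CPM in vehicle, 100.1, 87.0 and 89.1 CPM in erastin-R and 62.9, 61.9 and 65.6 CPM in RSL3-R. The 3 groups did not overlap, and here replicate 1 of erastin-R was the highest library. Of all genes, 28.7% lay apart and above vehicle in erastin-R, 30.4% did so in RSL3-R, and 29.5% lay apart and lower in RSL3-R than in erastin-R. PTGR1 rose 1.99-fold in erastin-R (log2 fold change 0.99, SE 0.08, edgeR adjusted p = 1.53e-07; 0.93 without replicate 1 of erastin-R) and 1.37-fold in RSL3-R (0.46, SE 0.08, edgeR adjusted p = 0.000229). Between the treatments the value was -0.54 (SE 0.07, edgeR adjusted p = 5.42e-05; -0.47 without replicate 1 of erastin-R).

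The carbonyl reductases CBR1 and CBR3 lie near each other on the plus strand of chromosome 21, at chr21:36069941-36073166 and chr21:36134912-36146566, and are 77.0% identical in coding sequence. CBR1 reduces quinones, prostaglandins and anthracyclines, and CBR3 acts on a narrower set of substrates. CBR3 measured 6.80, 6.79 and 6.60 CPM in vehicle, 3.45, 3.37 and 3.34 CPM in erastin-R and 2.26, 1.74 and 2.51 CPM in RSL3-R. All 3 groups were apart, with vehicle highest and RSL3-R lowest; CPM ranges lay apart and below vehicle for 29.1% of all genes in erastin-R and 31.4% in RSL3-R. CBR3 was 1.98-fold lower in erastin-R (log2 fold change -0.99, SE 0.16, edgeR adjusted p = 0.000149) and 3.09-fold lower in RSL3-R (-1.63, SE 0.17, edgeR adjusted p = 3.3e-06). RSL3-R was also below erastin-R (-0.64, SE 0.18, edgeR adjusted p = 0.0101).

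CBR1 gave 25.3, 23.0 and 24.1 CPM in vehicle, 21.3, 19.7 and 19.1 CPM in erastin-R and 17.5, 17.3 and 19.7 CPM in RSL3-R. Both treated groups lay below vehicle and overlapped each other. CBR1 fell in RSL3-R (log2 fold change -0.41, SE 0.09, edgeR adjusted p = 0.00236) and in erastin-R (-0.27, SE 0.09, edgeR adjusted p = 0.0243), where it missed the threshold in 5 of 16 alternatives (edgeR adjusted p 0.0511 to 0.0831), namely with no filter and without replicate 1 or 3 of vehicle or replicate 2 or 3 of erastin-R. Between the treatments its value was -0.14 (95% interval -0.34 to 0.06, edgeR adjusted p = 0.231). Exons of the antisense gene CBR3-AS1 cover 42.2% of the exon bases of CBR3, and those of AP000688.1 cover 18.9% of CBR1. Those genes had 6 to 20 and 0 to 5 counts, against at least 28 for CBR3 and 272 for CBR1. Whether the counting used strand is not given in the sources used here, so sense and antisense reads in the shared bases cannot be told apart.

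Over the 9 libraries the log2 CPM of CBR1 and CBR3 varied together (Pearson r = 0.95), as did those of AKR1A1 and AKR1B1 (0.95) and of AKR1C3 and PTGR1 (0.91), while AKR1C3 and CBR3 ran in opposite directions (-0.76). These correlations mostly repeat the differences between the 3 groups. Among 12970 protein-coding genes, the patterns most like those of single reductases were NADK and PEX6 for AKR1A1 (r = 0.990 and 0.988), TAZ (the tafazzin gene) and FHL2 for AKR1B1 (0.995 and 0.994), NR1D1 and DCAF8 for AKR1C3 (0.996 and 0.992) and TUBG2 and BLVRB for PTGR1 (0.992 and 0.991). UBE2N and CDCA3 were closest to CBR3 (0.991 and 0.988), and PMPCB and ZC3H18 to CBR1 (0.993 and 0.979). For AKR1C1 they were DHX32 and NPC1L1 (0.983 and 0.972), and for AKR1C2 SLC2A14 and UBE2D1 (0.970 and 0.964).

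NRF2 binds antioxidant response elements after oxidants release it from KEAP1. A list of 22 other well known NRF2 targets was chosen with earlier results of these data known, so its counts are no independent test. Of the 22, 21 rose and 0 fell in erastin-R, with a median log2 fold change of 1.0, and 11 of them met the stricter rule. These were NQO1, GCLC, GCLM, TXNRD1, SRXN1, HMOX1, SLC7A11, OSGIN1, FTL, FTH1 and PIR (1.03, or 0.94 without replicate 1 of erastin-R), and in RSL3-R the stricter rule held for SLC7A11 and ABCC3. In RSL3-R 9 rose, 2 fell and 11 did not pass, with a median of 0.12, and directly 20 were lower in RSL3-R and 1 was higher, with a median of -0.74. Of all genes, 27.1% rose and 26.8% fell in erastin-R, and 23.8% rose and 24.9% fell in RSL3-R. Directly, 26.9% of all genes were lower in RSL3-R and 22.3% higher. The stricter rule was met, higher, by 6.7% of all genes in erastin-R and 6.02% in RSL3-R. NQO1, a quinone reductase, went from 89.1 ± 1.47 CPM in vehicle to 204.9 ± 5.84 CPM in erastin-R and was 88.7 ± 2.70 CPM in RSL3-R (SD, n = 3). On the log2 scale it differed from vehicle by 1.2 in erastin-R (edgeR adjusted p = 1.98e-09) and -0.01 in RSL3-R (edgeR adjusted p = 0.936). GCLM, which helps to make glutathione, rose by 1.35 in erastin-R and fell by 0.40 in RSL3-R on the log2 scale. TXNRD1 (1.48 and 0.31) and HMOX1 (1.53 and 0.49) rose in both treatments, and SRXN1 rose in erastin-R (1.32, and 1.57 without replicate 1 of erastin-R). In RSL3-R the SRXN1 value was -0.46 with an edgeR adjusted p of 0.159, and -0.47 with 0.019 in the fit without that library. SLC7A11, the transport subunit of system xc- that erastin blocks, rose in both, by 2.76 and 2.53. Whether the reductases differ from these targets in their response to RSL3 was not tested.

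The transcript of NFE2L2, which encodes NRF2, was 114.7 ± 12.7 CPM in vehicle, 129.4 ± 26.8 CPM in erastin-R and 165.3 ± 11.1 CPM in RSL3-R. It rose in RSL3-R (log2 fold change 0.53, edgeR adjusted p = 0.00247), and in erastin-R its value was 0.17 (edgeR adjusted p = 0.239), and 0.00 (edgeR adjusted p = 0.999) without replicate 1 of erastin-R. KEAP1 fell in RSL3-R (-0.40, edgeR adjusted p = 0.00632), and its value in erastin-R was -0.05 (edgeR adjusted p = 0.737), and 0.09 (edgeR adjusted p = 0.260) without that library. Of the list of 7 genes of NRF2 and its regulators, 5 rose in erastin-R, and in RSL3-R 6 rose and 1 fell. The shares of all genes given for the NRF2 targets apply to this list as well. Past the stricter rule were MAFF (1.52), MAFK (1.04) and SQSTM1 (1.48) in erastin-R and BACH1 (1.14) in RSL3-R.

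Promoters were available from RefSeq (GRCh38.p14, 250 bases before to 50 after the start) for 7 of the 9 genes, with 9 promoters in all. The core of the antioxidant response element, TGACNNNGC on either strand, was found in 1 of the 9, that of CBR1, beside 13.3% of all 35116 promoters and 7 of 19 promoters (36.8%) of the other NRF2 targets. The match is shown in capitals within 30 bases at chr21:36069855-36069884, plus strand, and starts at -159 from the RefSeq start of CBR1, which lies downstream of the gene start in the files.
CBR1 promoter: tgcgggttctGCAAAGTCAggctagctggc
CBR1 fell in both treatments, as given above. A match to these letters is no evidence of binding, and elements further from the start were not searched.

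**Figure D4:**
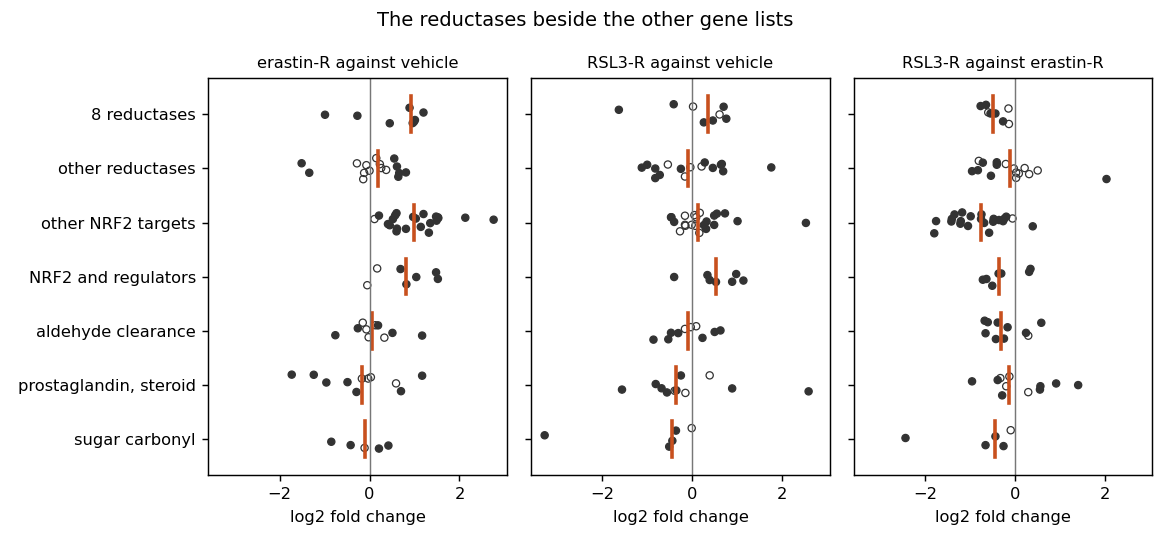
Log2 fold change (x axis) of the 8 tested reductases and of the tested genes of 6 other lists, 1 point per gene, filled at an adjusted p under 0.05 in edgeR's quasi-likelihood test, with list medians as orange lines. The other NRF2 targets have medians of 1.0, 0.12 and -0.74 and the reductases of 0.92, 0.36 and -0.48 in the 3 panels.

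Of 16 other reductases of the same families that were tested, 5 rose and 2 fell in erastin-R (median log2 fold change 0.19) and 6 rose and 6 fell in RSL3-R (median -0.10), beside 27.1% and 26.8% of all genes in erastin-R and 23.8% and 24.9% in RSL3-R. KCNAB3, a potassium channel subunit of the aldo-keto reductase fold, fell in both (-1.51 and -1.0), as did the quinone oxidoreductase TP53I3 (-1.34 and -1.12). AKR1C4, the liver type of the AKR1C genes, had 5, 9 and 8 counts in vehicle, 7, 5 and 6 in erastin-R and 25, 22 and 28 in RSL3-R. It rose in RSL3-R (log2 fold change 1.76, SE 0.35, edgeR adjusted p = 0.00082), and RSL3-R was above erastin-R by 2.04 (edgeR adjusted p = 0.000352), the opposite direction to AKR1C3 in that comparison.

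The same shares of all genes apply to the enzymes next to the reductases in their pathways. Of 10 tested aldehyde dehydrogenases, glutathione transferases and related clearance enzymes, 3 rose and 2 fell in erastin-R and 3 rose and 4 fell in RSL3-R. ALDH2, the mitochondrial aldehyde dehydrogenase, was 48.6 ± 3.40 CPM in vehicle, 109.5 ± 1.35 CPM in erastin-R and 68.8 ± 2.99 CPM in RSL3-R, and rose in both (1.17 and 0.50). Of 11 prostaglandin and steroid enzymes, 2 rose and 5 fell in erastin-R and 2 rose and 6 fell in RSL3-R. PTGS2, which starts prostaglandin synthesis, rose in both (1.17 and 2.59), while HPGD, which starts their breakdown, fell in both (-1.24 and -1.56). HPGD was scarce, with 30 to 46 counts in vehicle, 14 to 20 in erastin-R and 8 to 16 in RSL3-R. Steroid sulfatase, STS, fell from 73.2 ± 3.57 CPM to 22.01 ± 2.55 CPM in erastin-R and 41.6 ± 2.94 CPM in RSL3-R. Of 5 sugar carbonyl enzymes, 2 rose and 2 fell in erastin-R and 0 rose and 4 fell in RSL3-R. KHK, the fructokinase that acts downstream of AKR1B1 and sorbitol, fell in both (-0.85 and -3.28). Its values rest on few reads, with 36, 47 and 38 counts in vehicle, 25, 15 and 27 in erastin-R and 7, 3 and 2 in RSL3-R.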

How the data were processed

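RNA of 9 libraries was sequenced after poly(A) selection and library preparation with the NEBNext Ultra kit. The authors deposited counts of uniquely mapped exonic reads per gene, and the submitters' processing notes name HISAT2 2.0.5 and featureCounts 1.5.0-p3. FPKM values computed from the same counts were deposited beside them. All 58735 gene positions equalled those of GENCODE 29 (GRCh38). Groups were taken from the treatment in the sample labels. Counts were analysed with edgeR 4.0.16 in R 4.3.3 (TMM, filterByExpr, quasi-likelihood test, 1 model of 9 libraries, no covariate), and the standard error is the size of the log2 fold change divided by the square root of F. The common coefficient of variation was 8.56%. A count of 3 corresponded to 0.175 to 0.193 CPM, and such limits cover counting error only. No 2 libraries held the same counts. On simulated counts of 16188 genes for erastin-R against vehicle, edgeR recovered 197 of 200 changed genes and called 2 unchanged ones. How recovery depends on the size of the log2 fold change or on the level of the gene was not tested. Recovery at the fold changes and levels of the reductases was therefore not tested either. Cufflinks, which the study used, cannot be run on counts, so edgeR took its place. DESeq2 1.42.0, limma 3.58.1 and other alternatives are described in the closing section.

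The members and the 6 gene lists were chosen with earlier results of these data known. The genes named are the members, NFE2L2, KEAP1, NQO1, GCLM, TXNRD1, HMOX1 and SRXN1, genes of the lists that met the stricter rule in at least 1 comparison, the marker genes of the line and of other cell types, and the 2 genes most correlated with each member. Words of 50 bases were compared over GENCODE 29 transcripts and gene strands were ignored.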

Additional observations from a re-analysis of the deposited data

Results flagged for a closer look

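Among the genes whose values are given above, the response to erastin and to RSL3 differed for the following ones, by the direct test of RSL3-R against erastin-R (edgeR's quasi-likelihood test, adjusted p under 0.05). By the same test 22.3% of all genes were higher and 26.9% lower in RSL3-R. Most genes of the lists were named because they met the stricter rule in at least 1 comparison, this one included. How many of them appear here is therefore no measure of how often such genes differ. Among the reductases the log2 fold change of RSL3-R against erastin-R was -0.43 for AKR1A1, -0.76 for AKR1B1, -0.26 for AKR1C3, -0.64 for CBR3 and -0.54 for PTGR1. For AKR1B1, AKR1C3 and PTGR1 the lower value in RSL3-R stands beside a smaller rise over vehicle, for AKR1A1 beside a rise in erastin-R and a value of 0.02 in RSL3-R that did not pass, and for CBR3 beside a larger fall. The AKR1C copies AKR1C4, at 2.04, and AKR1C7P, at 0.91 (its other values are given below), went the other way. Among NRF2 targets the differences were -1.21 for NQO1, -1.34 for GCLC, -1.75 for GCLM, -1.17 for TXNRD1, -1.79 for SRXN1, -1.04 for HMOX1, -0.23 for SLC7A11, -1.41 for OSGIN1, -1.2 for FTL, -1.4 for FTH1, -0.98 for PIR, -0.48 for BLVRB and 0.40 for ABCC3. NFE2L2 differed by 0.35 (0.53 without replicate 1 of erastin-R), KEAP1 by -0.36 (-0.49), MAFF by -0.63, MAFK by -0.71, SQSTM1 by -0.50 and BACH1 by 0.32. The other enzymes were at -0.67 for ALDH2, 1.41 for PTGS2, 0.92 for STS and -2.43 for KHK, which had 2 to 7 counts in RSL3-R. The marker genes differed by 2.83 for PECAM1, 2.18 for CDH1, 1.97 for PTPRC, 1.15 for KRT18, 0.82 for PDGFRB, -0.27 for CD44 and -0.4 for ERBB2.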

How the results depend on the processing

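Over 24 log2 fold changes (8 reductases in 3 comparisons) and 17 alternatives, 371 of 393 values kept their direction and their side of the adjusted p of 0.05. In the other 22, 16 lost the call, 5 gained it and 1 changed sign without a call. The sign change was AKR1A1 in RSL3-R against vehicle, at -0.03 without replicate 3 of vehicle (edgeR adjusted p = 0.858) and 0.06 at most when another library was left out. The lost calls were those of CBR1 in erastin-R (5), AKR1B1 in RSL3-R (5) and AKR1C3 between the treatments (6). The gained calls were those of AKR1C2 in RSL3-R (2) and between the treatments (2), and of AKR1C1 between the treatments (1). For the AKR1C genes 1 of the 17 alternatives was the fit of their sum, entered once for each gene and not a value of that gene. The gained call of AKR1C1 and 1 of the 2 for AKR1C2 in each comparison came from that fit. The number of reductases past the fold and adjusted p was 2 in erastin-R and reached 4 without replicate 3 of vehicle or replicate 1 of erastin-R. Leaving out 1 library at a time it ranged from 2 to 4 in erastin-R, stayed at 1 in RSL3-R and at 0 between the treatments, and the number past the adjusted p alone ranged from 7 to 8, from 5 to 6 and from 4 to 5. All genes past both thresholds ranged from 2043 to 2573, from 1581 to 1779 and from 1514 to 2143. Quantile normalization gave 822 genes higher and 644 lower in RSL3-R against erastin-R, beside 1111 and 563 after TMM. No scaling moved the median of all genes by more than 0.027. With the replicate number as a block, 2, 1 and 0 reductases passed both thresholds and 8, 6 and 5 the adjusted p, and no call of a reductase changed. Same-numbered libraries were not shown to be paired (correlations of their deviations from -0.0904 to 0.0518 over 9 pairs). AKR1C2 with 14 to 43 counts and AKR1B10 with 2 to 13 are limited by depth.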

Other observations

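Beyond the reductases named above, the AKR1C cluster on chromosome 10 holds further copies, which were looked at after the values of AKR1C4 had been seen. AKR1C7P, a transcribed pseudogene at chr10:5275173-5288470 in GRCh38, had 49, 33 and 43 counts in vehicle, 57, 44 and 35 in erastin-R and 77, 85 and 92 in RSL3-R. It rose in RSL3-R (log2 fold change 1.03, SE 0.20, edgeR adjusted p = 0.000794), and its value in erastin-R was 0.13 (edgeR adjusted p = 0.643). AKR1C8P at chr10:5154140-5185187 did not pass the filter and had 3, 2 and 1 counts in vehicle, 2, 3 and 0 in erastin-R and 8, 12 and 13 in RSL3-R. AKR1C6P, at chr10:4871901-4891975 on the other side of AKR1C1, had 3 to 11 counts in the 9 libraries, at 0.71 on the log2 scale in RSL3-R (edgeR adjusted p = 0.223). Of the copies beyond AKR1C3, AKR1C8P, AKR1C4 and AKR1C7P had higher counts in each of the 3 RSL3-R libraries than in any other library, and AKR1C5P had at most 1 count in vehicle and erastin-R and 1, 3 and 5 in RSL3-R, while AKR1C1, AKR1C2 and AKR1C3 had their highest group means in erastin-R. CPM ranges lay apart and higher than vehicle in RSL3-R for 30.4% of all genes tested. The scarce marker genes CDH1 and PTPRC, given above, also had their highest counts in RSL3-R. AKR1C4 is 87.8% to 88.5% identical in coding sequence to AKR1C1, AKR1C2 and AKR1C3, and the identity of the other copies was not computed. Whether reads were placed on the wrong copy was not tested.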
